A study of Homo sapiens with 6 samples.

Results

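The epidermal growth factor (EGF) family of ligands and the protease ADAM17, which cuts several of them from the cell surface, were examined in RNA-Seq data of HCC1806/HM3 cells with and without knockdown of MSLN. The 10 genes were taken by symbol from the deposited table of 17860 genes. They are the 9 ligand genes HBEGF, AREG, EREG, TGFA, BTC, EPGN, EGF, NRG1 and NRG2, together with ADAM17, and all 10 had a value in every sample and passed the filter on low counts. HCC1806 is a human triple-negative breast cancer cell line, and HM3 is a derivative recovered from liver metastases over repeated rounds of selection in nude mice. The study compared 3 samples carrying a control shRNA (shNC) with 3 samples carrying an shRNA against MSLN (shMSLN), to ask how MSLN acts in liver-metastatic cells. All 6 samples share the HM3 background, a lentiviral vector selected with G418 and culture in RPMI medium with serum, and poly(A) RNA was sequenced. The labels name 1 shMSLN group and do not say which shRNA it carried or whether the 3 samples of a group were separate cultures, so the p-values below measure the spread between these samples, which may be technical.

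EGF family ligands are made as membrane-bound precursors with an EGF-like domain held by disulfide bonds between cysteines. Proteases of the ADAM family, ADAM17 foremost, release the soluble ligand, which then binds a receptor of the ERBB family on the same or a nearby cell. HBEGF, AREG, EREG, TGFA, BTC, EPGN and EGF bind EGFR, HBEGF, BTC and EREG also bind ERBB4, and the neuregulins NRG1 and NRG2 bind ERBB3 and ERBB4. Activated receptors signal through the RAS-ERK cascade, and several ligand genes are themselves targets of that cascade.

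The coding sequence of the EGF-like domain is shown for the 7 EGFR ligands because this domain is what makes them a family and what meets the receptor. Sequences were read 5′ to 3′ from spliced GENCODE release 29 transcripts, and capitals mark the codons of the 6 cysteines that define the domain.

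HBEGF: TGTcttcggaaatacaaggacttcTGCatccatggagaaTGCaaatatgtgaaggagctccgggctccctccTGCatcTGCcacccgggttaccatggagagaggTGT
AREG: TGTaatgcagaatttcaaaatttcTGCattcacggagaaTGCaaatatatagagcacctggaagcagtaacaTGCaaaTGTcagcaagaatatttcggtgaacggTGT
EREG: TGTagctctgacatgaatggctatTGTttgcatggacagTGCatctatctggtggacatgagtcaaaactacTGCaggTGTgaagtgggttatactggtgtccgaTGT
TGFA: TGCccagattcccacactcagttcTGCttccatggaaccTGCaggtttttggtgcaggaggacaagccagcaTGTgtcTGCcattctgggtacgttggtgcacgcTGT
BTC: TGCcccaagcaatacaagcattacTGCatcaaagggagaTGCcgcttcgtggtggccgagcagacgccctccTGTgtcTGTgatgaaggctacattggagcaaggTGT
EPGN: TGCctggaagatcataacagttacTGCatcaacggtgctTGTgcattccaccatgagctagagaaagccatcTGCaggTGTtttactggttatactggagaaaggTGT
EGF: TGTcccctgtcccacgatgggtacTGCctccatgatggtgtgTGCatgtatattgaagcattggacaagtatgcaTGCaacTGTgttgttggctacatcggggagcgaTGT

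The cysteine codons were found once in this spacing in each of the 9 ligands. Cysteines 1 and 2 are separated by 7 codons, cysteines 2 and 3 by 4 codons in the first 6 sequences above and by 5 in EGF, cysteines 3 and 4 by 10, cysteines 4 and 5 by 1, and cysteines 5 and 6 by 8. NRG2 has the spacing of EGF. NRG1 has 13 codons between cysteines 3 and 4, and its domain spans 40 residues against 36 in HBEGF. In the 208-residue HBEGF precursor the domain runs from residue 108 to residue 143. By pairwise alignment of the encoded residues, the HBEGF domain was 52.8% identical to that of AREG, 47.2% to that of BTC and 41.7% to that of TGFA. EREG and NRG2 were the least like HBEGF among the 8 other ligands, at 36.1% and 35.1%.

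The deposited estimated counts summed to 17507837 in the shallowest sample and 18512135 in the deepest. MSLN was at 228, 233 and 227 TPM (the authors' values, scaled for gene length and depth to a fixed total of transcripts) in the shNC samples and at 38.0, 37.3 and 37.1 TPM in the shMSLN samples, so the labels of all 6 samples matched the targeted gene. All 8 epithelial markers examined were measured above the filter, with summed levels of 3820 to 4390 CPM (counts relative to library size, scaled by TMM) in shNC and 3440 to 3600 CPM in shMSLN, and 2 were called higher and 3 lower. The lower ones were KRT6A, with a log2 fold change of -1.03, KRT5, with -0.38, and KRT18, with -0.16. The higher ones were CDH1, with 0.15, and KRT17, with 0.16. Of 6 hepatocyte markers 0 passed the filter and the 3 with values in all samples were under 1 CPM in every sample, their summed level being at most 1.17 CPM in shNC and at most 0.449 CPM in shMSLN. Of 6 fibroblast markers 2 were called higher and 0 lower in shMSLN, with summed levels of 94.1 to 97.8 CPM in shNC and 159 to 163 CPM in shMSLN. That rise was carried by LUM, while COL1A2 and COL3A1 did not pass the filter. Of 6 leukocyte markers 4 were tested and 0 were called by edgeR or had an unadjusted p below 0.05, and their summed levels were 29.4 to 31.8 CPM in shNC and 28.6 to 30.7 CPM in shMSLN. Of 5 endothelial markers 4 were tested and 1, VWF, was called higher, with summed levels of 7.93 to 9.29 CPM and 9.46 to 10.5 CPM. The part of these marker levels in the results below was not tested. In bulk RNA, fewer cells expressing a gene and less RNA per cell cannot be told apart. Among genes above 100 reads, 47.7% of estimated counts were exactly whole as deposited in shMSLN replicates 2 and 3 and 3.36% to 7.02% in the other 4 samples. Within 0.02 of a whole number the shares were 51.0% and 50.7% in shMSLN replicates 2 and 3 and 11.5% to 16.3% in the others. Genes without a value numbered 0 in each shNC sample, 1103 in shMSLN replicate 1 and 695 in each of shMSLN replicates 2 and 3. Whether these columns were made in another way is not given in the sources used here. Such a difference would in part follow the groups, and its part in the results below was not tested.

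HBEGF and EREG were lower and EGF and NRG1 higher in shMSLN cells, and the other 6 genes did not pass the test. Genes were called at an adjusted p below 0.05 from edgeR's quasi-likelihood test on rounded counts, with Benjamini-Hochberg adjustment over 14552 tested genes. The 4 called genes are 40% of the 10, where 34.6% of all tested genes were called, so the share of the group is close to that of the whole table. The calls were 2 lower, where 18% of all tested genes were called lower, and 2 higher, where 16.6% were called higher. With a fold change above 2 required as well, HBEGF remained as 1 of 10, against 1.96% of all tested genes. In scaled counts the shNC and shMSLN samples did not overlap for 6 of the 10 genes, where 46.2% of all tested genes had groups apart. The median log2 fold change was -0.078 over the 10 genes and 0.0019 over all tested genes.

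**Figure D1:**
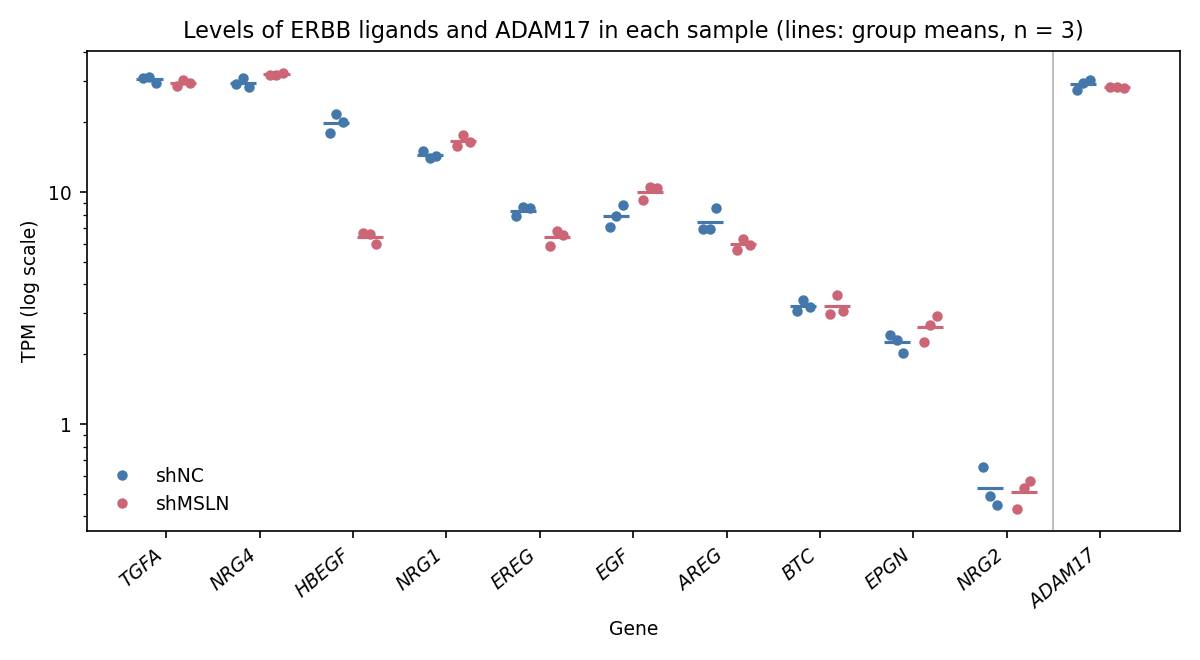
TPM on a log scale for each ERBB ligand and ADAM17, with 1 point per sample and lines at the means of 3 shNC and 3 shMSLN samples. HBEGF drops from a mean of 19.9 to 6.40 TPM, from above NRG1 to among EREG and AREG, whereas the TGFA and ADAM17 points lie between 27.5 and 31.3 TPM in both groups.

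HBEGF, heparin-binding EGF-like growth factor, is on the reverse strand of chromosome 5 from 140332843 to 140346631 (GRCh38, GENCODE release 29). It was at 17.9, 21.7 and 20.1 TPM in shNC replicates 1, 2 and 3 and at 6.64, 6.61 and 5.95 TPM in shMSLN replicates 1, 2 and 3. The lowest shNC sample was well above the highest shMSLN sample, and the samples within each group were close. The mean fell by 67.9%, a 3.11-fold difference. The values rest on 358, 410 and 391 estimated reads in shNC and 131, 123 and 110 in shMSLN. In the edgeR fit the log2 fold change was -1.67 (standard error 0.091, 95% interval -1.86 to -1.47, adjusted p = 6.04e-09). Of the 14552 tested genes, 11 had a lower log2 fold change and 39 a smaller p. No other gene of the group had an interval that reached that of HBEGF, and the nearest, that of NRG2, ended at -0.87.

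EREG and AREG encode epiregulin and amphiregulin, both EGFR ligands released by ADAM17. EREG was at 7.86, 8.63 and 8.51 TPM in shNC and at 5.86, 6.79 and 6.54 TPM in shMSLN, so every shMSLN sample was below every shNC sample. Its log2 fold change was -0.42 (standard error 0.078, 95% interval -0.58 to -0.25, adjusted p = 0.000892 from edgeR). AREG was at 6.94, 6.91 and 8.51 TPM in shNC and at 5.65, 6.28 and 5.91 TPM in shMSLN. The AREG groups did not overlap either, with shNC replicate 3 above the other 2 shNC samples, but the gene did not pass the test. Its log2 fold change was -0.36 (standard error 0.16, 95% interval -0.70 to -0.022) with an unadjusted p of 0.0387 and an adjusted p of 0.0932 from edgeR. AREG had only 67 to 85 reads per shNC sample and 56 to 60 per shMSLN sample. Without shNC replicate 3 its log2 fold change was -0.25, with an adjusted p of 0.316 from edgeR.

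TGFA encodes transforming growth factor alpha. It was at 31.1, 31.3 and 29.5 TPM in shNC and at 28.8, 30.4 and 29.7 TPM in shMSLN. The groups overlapped in TPM and were narrowly apart in scaled counts, at 56.4 to 60.0 CPM against 53.6 to 56.1 CPM. The log2 fold change was -0.083 (95% interval -0.18 to 0.017, adjusted p = 0.189 from edgeR). BTC, betacellulin, was at 3.07 to 3.43 TPM in shNC and 2.99 to 3.61 TPM in shMSLN, and EPGN, epigen, at 2.02 to 2.43 and 2.26 to 2.92 TPM. Both had overlapping groups and wide intervals, of -0.34 to 0.31 for the log2 fold change of BTC and -0.17 to 0.60 for that of EPGN.

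EGF itself moved the other way. It was at 7.04, 7.89 and 8.82 TPM in shNC and at 9.24, 10.5 and 10.4 TPM in shMSLN. Every shMSLN sample was higher than every shNC sample, though shNC replicate 3 and shMSLN replicate 1 were near each other. The log2 fold change was 0.30 (standard error 0.078, 95% interval 0.13 to 0.47, adjusted p = 0.00826 from edgeR).

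NRG1, neuregulin 1, lies on chromosome 8 from 31639386 to 32767959. It was at 15.0, 14.04 and 14.4 TPM in shNC and at 15.9, 17.6 and 16.4 TPM in shMSLN, again with no overlap. The log2 fold change of NRG1 was 0.20 (standard error 0.056, 95% interval 0.084 to 0.32, adjusted p = 0.0113 from edgeR). This call was lost with DESeq2, at an adjusted p of 0.0533, and without shMSLN replicate 2, at 0.0557. NRG2 was at 0.45 to 0.65 TPM in shNC and 0.43 to 0.57 TPM in shMSLN, the lowest of the 10 genes, and its interval of -0.87 to 0.51 excludes little. Of the neuregulins outside the group, NRG4, an ERBB4 ligand, was at 29.3, 31.2 and 28.4 TPM in shNC and at 31.9, 32.0 and 32.8 TPM in shMSLN. Its groups were apart, and its log2 fold change of 0.13 (95% interval 0.014 to 0.25) had an adjusted p of 0.0767 from edgeR. NRG3 was at most 0.07 TPM in any sample and was not tested.

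ADAM17, on the reverse strand of chromosome 2 from 9488486 to 9556732, was at 27.5, 29.5 and 30.3 TPM in shNC and at 28.5, 28.3 and 28.2 TPM in shMSLN. In TPM the shMSLN samples lay within the range of the shNC samples. In scaled counts ADAM17 was at 56.8, 58.3 and 62.1 CPM in shNC and at 57.0, 55.8 and 55.7 CPM in shMSLN. The groups overlapped there too, through shMSLN replicate 1. The log2 fold change of the sheddase was -0.072 (standard error 0.049, 95% interval -0.18 to 0.031, adjusted p = 0.271 from edgeR). Exons of ADAM17 share 1323 bases with IAH1 on the opposite strand, and exons of NRG4 share 1917 bases with FBXO22. Whether the counting used strand is not given in the sources used here, so reads of these pairs may be mixed. HBEGF, AREG, EREG, TGFA, BTC, EPGN, EGF and NRG1 share exon bases with 0 other annotated genes.

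**Figure D2:**
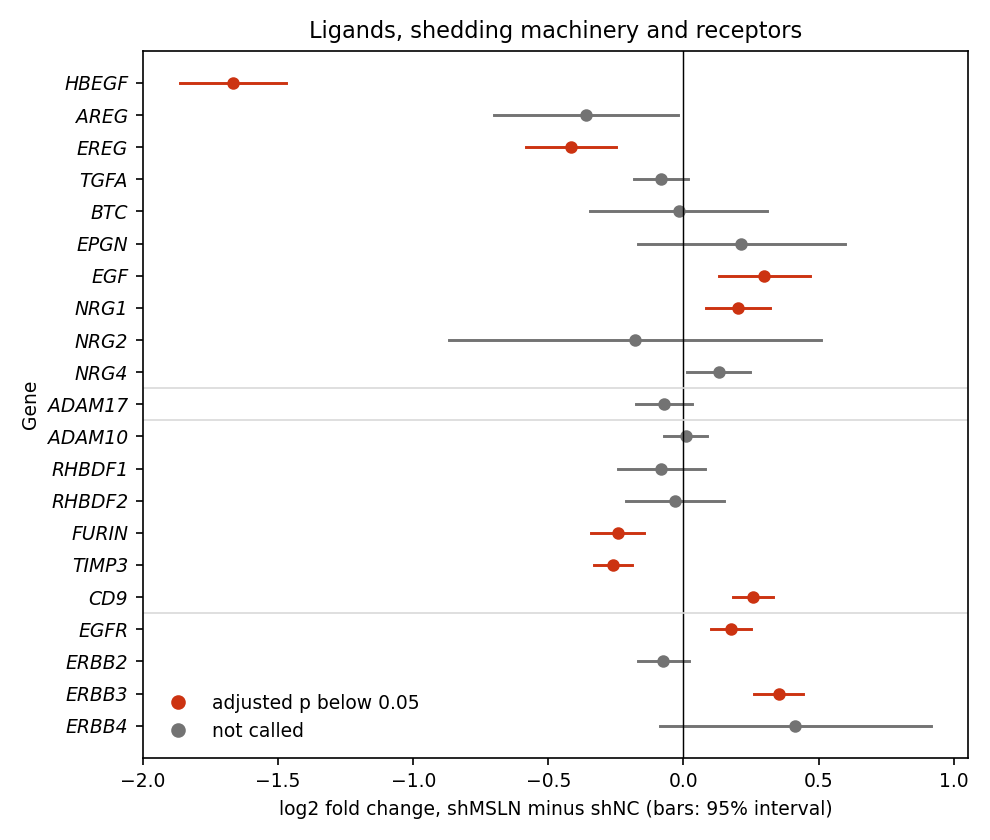
Log2 fold change of shMSLN against shNC with its 95% interval from edgeR for 10 ligands including NRG4, ADAM17, ADAM10, RHBDF1, RHBDF2, FURIN, TIMP3, CD9 and the 4 ERBB receptors, red where the adjusted p is below 0.05. HBEGF stands at -1.67, and every other gene plotted lies between -0.42 and 0.41.

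TGFA was the most abundant of the 9 ligand mRNAs in every sample. In shNC cells the mean levels ran from TGFA at 30.7 ± 1.013 TPM (SD, n = 3) to HBEGF at 19.9 ± 1.89, NRG1 at 14.5 ± 0.51, EREG at 8.33 ± 0.41, EGF at 7.92 ± 0.89, AREG at 7.45 ± 0.92, BTC at 3.23 ± 0.18, EPGN at 2.25 ± 0.21 and NRG2 at 0.53 ± 0.11 TPM. Sample ranges of EREG, EGF and AREG overlapped from one to the next, and all other neighbours in that order were apart. In shMSLN cells TGFA stayed first at 29.6 ± 0.84 TPM, followed by NRG1 at 16.6 ± 0.91 and EGF at 10.0 ± 0.69 TPM. HBEGF came next at 6.40 ± 0.39 TPM, beside EREG at 6.40 ± 0.48 and AREG at 5.95 ± 0.32 TPM, and the ranges of these genes overlapped. With NRG4 counted, TGFA and NRG4 overlapped in shNC cells, and NRG4 was above TGFA in all shMSLN samples. In shNC cells TGFA was higher than 67.7% of the 16573 genes with values in all samples, HBEGF higher than 57.1% and EREG higher than 39.4%.

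The ligand pool, meaning the summed TPM of the 9 ligands, was 92.1, 96.7 and 95.5 TPM in shNC and 77.7, 85.1 and 81.4 TPM in shMSLN. Every shMSLN sample was below every shNC sample, and the difference of the means was -13.4 TPM for the pool and -13.5 TPM for HBEGF alone. Without HBEGF the pool was 74.2, 75.04 and 75.4 TPM in shNC and 71.1, 78.5 and 75.5 TPM in shMSLN, and the groups overlapped. Within this remainder, the mean of EREG fell by 1.94 TPM, and those of EGF and NRG1 rose by 2.12 and 2.14 TPM. The differences of AREG and TGFA, which did not pass the test, were -1.51 and -1.03 TPM.

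The make-up of the pool also differed between the groups. HBEGF made up 19.5%, 22.4% and 21.1% of it in shNC and 8.55%, 7.77% and 7.31% in shMSLN. TGFA made up 33.8%, 32.4% and 30.9% in shNC and 37.0%, 35.8% and 36.5% in shMSLN, and NRG1 made up 16.3%, 14.5% and 15.1% and then 20.4%, 20.7% and 20.1%. Per length, TGFA mRNA was thus 1.44 to 1.74 times as abundant as HBEGF mRNA in shNC cells and 4.33 to 4.99 times in shMSLN cells. In scaled counts, which are not per length and favor long transcripts, TGFA made up 37.3%, NRG1 17.9% and HBEGF 13.7% of the shNC pool, which puts NRG1 above HBEGF. These shares are sums over genes of mRNA, are given as a description, and say nothing of released ligand.

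**Figure D3:**
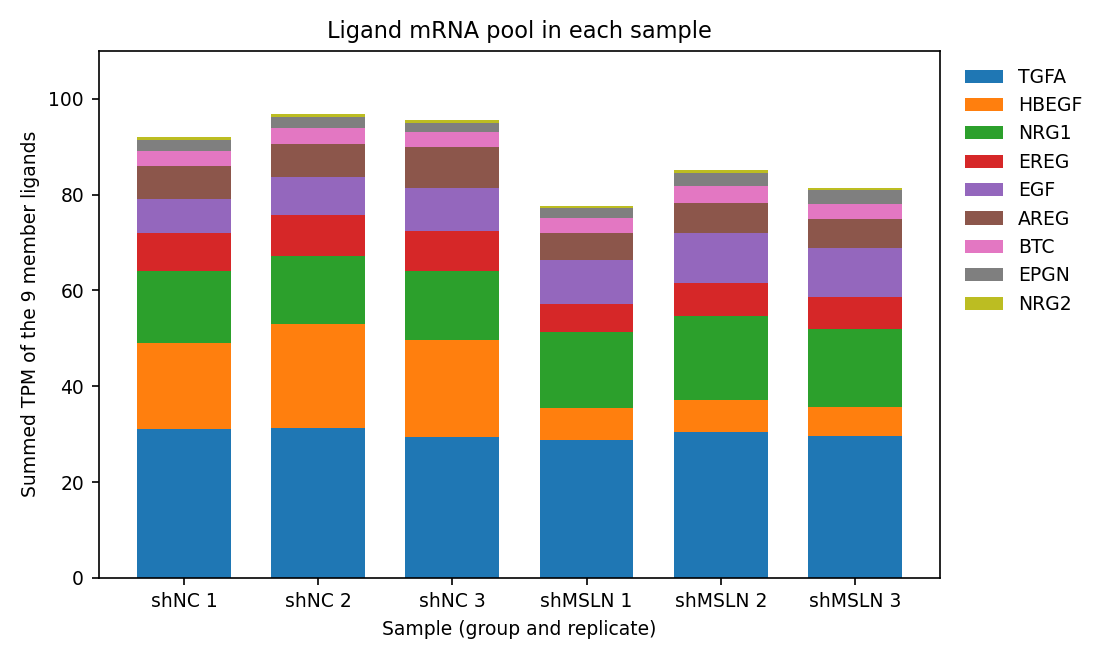
Stacked TPM of the 9 ligand genes in each of the 6 samples, with the colors naming the genes. The HBEGF block shrinks from 17.9 to 21.7 TPM in shNC to 5.95 to 6.64 TPM in shMSLN, and the remaining blocks sum to 71.1 to 78.5 TPM throughout.

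EGFR mRNA was above that of each ligand in every sample. It was at 119, 127 and 124 TPM in shNC and at 138, 145 and 146 TPM in shMSLN, and every shMSLN sample was higher (log2 fold change 0.18, adjusted p = 0.00123 from edgeR). The 7 EGFR ligands summed to 76.4, 82.2 and 80.6 TPM in shNC and 61.4, 66.9 and 64.5 TPM in shMSLN. EGFR mRNA was therefore 1.54 to 1.55 times the summed ligand mRNA in shNC and 2.17 to 2.27 times in shMSLN. ERBB3, which binds NRG1 and NRG2, was also higher (log2 fold change 0.35, adjusted p = 1.53e-05 from edgeR), while NRG1 and NRG2 summed to 14.5 to 15.7 TPM in shNC and 16.3 to 18.2 TPM in shMSLN. ERBB2, the receptor without a ligand of its own, did not pass the test (log2 fold change -0.075, adjusted p = 0.213), nor did ERBB4, at under 1 TPM (log2 fold change 0.41, adjusted p = 0.191). In all, 2 of the 4 receptor genes were called higher and 0 lower, where 16.6% and 18% of all tested genes were.

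Of 7 genes that mature, carry or inhibit ADAM17, 0 were called higher and 2 lower in shMSLN cells, where 34.6% of all tested genes were called in either direction, and the median log2 fold change was -0.12. The 2 were TIMP3, an inhibitor of ADAM17, which fell by 0.26 in log2 units (adjusted p = 3.10e-05 from edgeR), and FURIN, which removes the prodomain of ADAM17 and so activates it, which fell by 0.24 (adjusted p = 0.000947). RHBDF1 and RHBDF2 encode iRhom1 and iRhom2, which bring ADAM17 to the cell surface, and had log2 fold changes of -0.083 (95% interval -0.24 to 0.078) and -0.031 (95% interval -0.21 to 0.15).

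Of 12 other proteases linked to ligand cleavage, 10 were tested, of which 2 were called higher and 3 lower, beside 16.6% and 18% of all tested genes, and the median was 0.027. ADAM10, the main sheddase of EGF and BTC, had a log2 fold change of 0.0084 (95% interval -0.072 to 0.089). ADAM19 and ADAM12 rose by 0.59 and 0.38 (adjusted p = 0.00737 and 0.0167 from edgeR), both from means under 10 CPM. BACE2 fell by 0.25 on the log2 scale, ADAM15 by 0.18 and RHBDL2, a rhomboid protease that can cleave EGF, by 0.15. Of 6 genes for the transport or membrane partnering of ligand precursors, 2 were called higher and 2 lower, beside the same shares, with a median of -0.084. CD9, a tetraspanin that associates with membrane-bound HBEGF, rose by 0.26 (adjusted p = 4.79e-05 from edgeR) and GORASP2, a Golgi protein that binds the TGFA precursor, by 0.16. CNIH1, a cornichon export receptor, fell by 0.19 and AP1M2, an adaptor subunit for basolateral sorting, by 0.17.

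EPGN, EREG, AREG and BTC form a cluster on chromosome 4 with 0 other annotated protein-coding genes among them. Counted from the start of EPGN at 74308473, EREG begins at 56.7 kb, AREG at 136.7 kb and BTC at 436.3 kb. EREG was the 1 gene of the 4 that was called. AREG had a log2 fold change of -0.36, and EPGN and BTC, at the ends of the cluster, had values of 0.21 and -0.018. The 95% intervals of AREG (-0.70 to -0.022) and BTC (-0.34 to 0.31) overlapped that of EREG (-0.58 to -0.25). That of EPGN (-0.17 to 0.60) was apart from EREG but overlapped those of AREG and BTC. A difference between the middle and the ends of the cluster is thus not shown.

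The 250 bases before the start site of the 2 ligand genes that were called lower, HBEGF and EREG, and of AREG are shown because these genes had the lowest log2 fold changes of the group (RefSeq, GRCh38.p14). Capitals mark matches on either strand to 4 patterns. For NF-kB the pattern has GGG at its start and CC at its end with any 5 bases between, and for the cAMP response element (CRE) it is TGACGTCA. The AP-1 pattern is TGANTCA, in which N is any base. The TATA box was searched as TATAAA. The windows are chr5:140346604-140346853 on the reverse strand for HBEGF, chr4:74364895-74365144 on the forward strand for EREG and chr4:74444886-74445135 on the forward strand for AREG.

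HBEGF: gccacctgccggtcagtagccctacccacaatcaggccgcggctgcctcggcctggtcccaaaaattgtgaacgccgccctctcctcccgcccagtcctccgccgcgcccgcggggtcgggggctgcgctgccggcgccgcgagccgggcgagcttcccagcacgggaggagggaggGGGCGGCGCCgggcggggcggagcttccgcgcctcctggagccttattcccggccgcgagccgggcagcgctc
EREG: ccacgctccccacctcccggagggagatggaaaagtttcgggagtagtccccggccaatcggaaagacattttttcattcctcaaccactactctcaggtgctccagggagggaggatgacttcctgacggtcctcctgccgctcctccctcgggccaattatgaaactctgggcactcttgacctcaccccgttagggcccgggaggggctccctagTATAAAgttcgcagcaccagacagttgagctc
AREG: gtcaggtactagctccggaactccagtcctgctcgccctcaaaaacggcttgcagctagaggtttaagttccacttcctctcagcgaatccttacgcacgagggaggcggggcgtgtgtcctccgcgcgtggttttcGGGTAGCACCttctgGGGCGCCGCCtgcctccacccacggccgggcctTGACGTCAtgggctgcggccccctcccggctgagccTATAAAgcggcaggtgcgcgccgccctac

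The windows differ in composition, with 76.4% G and C in HBEGF, 58.0% in EREG and 65.2% in AREG. The HBEGF window holds 1 NF-kB pattern, 73 bases before the start, which 53.7% of 27305 promoter windows of the same length also hold, and 5 matches to GGGCGG (a GC box), found in 42.3% of windows and, in 1 case or more, overlapping that NF-kB pattern. It has 0 matches to the TATA pattern. EREG and AREG have TATAAA at 32 and 29 bases before the start, a pattern in 11.1% of windows, and AREG has TGACGTCA at 65 bases before the start, a pattern in 1.77% of windows. The AP-1 pattern, in 6.6% of windows, was in none of the 3. For NF-kB, AREG has 2 matches and EREG 0. Among the other members searched, TGFA has 6 NF-kB matches, some overlapping, ADAM17 4, BTC 3, EGF 1, and EPGN and NRG2 0. EPGN also has TATAAA, at 29 bases before the start. The NF-kB and TATA patterns are thus not particular to the genes shown. Among the members searched, the CRE pattern was found in AREG alone, and NRG1 was not searched. A match of letters is not evidence of binding, and its relation to the changes in mRNA was not tested.

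The mix of transcripts behind each value was examined through the length implied by the deposited counts and FPKM. For HBEGF it was 2308 to 2312 bases over the 6 samples, a range of 0.145% that is within the rounding of FPKM, and for AREG and EREG it varied by 0.246% and 0.144%. It varied by 0.327% for TGFA and 0.367% for ADAM17. For these 5 genes the length used was nearly the same in every sample. The range was 12.4% for NRG1, from 3932 to 4421 bases with the groups overlapping, 7.42% for BTC, 4.83% for EGF and 26.1% for NRG2. For EPGN the implied length was 2466 to 2491 bases in shNC and 2520 to 2548 bases in shMSLN, with the groups apart.

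By root mean square difference of log2 profiles over the 6 samples, among 11749 genes with a mean of at least 5 CPM, the genes most like HBEGF were EDAR (0.188), LY6D (0.277), BIRC3 (0.285), LCN2 (0.304) and TMOD1 (0.310). EDAR, a receptor of the TNF receptor family, was at 17.0, 19.6 and 21.2 CPM in shNC and 6.67, 8.24 and 6.16 CPM in shMSLN. HBEGF was at 19.6, 22.7 and 21.8 CPM and at 7.04, 6.90 and 6.21 CPM. The genes most like TGFA were ZNF589 (0.0150), SELENOS (0.0164), MIX23 (0.0167), TOP3B (0.0190) and YKT6 (0.0190), whose values, like those of TGFA, moved little between the groups. With 6 samples and many genes, likeness of this kind is a description only.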

How the data were processed

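BGI sequenced poly(A) RNA from each of 3 shNC and 3 shMSLN samples. The authors deposited 1 table of 17860 genes with estimated counts, FPKM and TPM per sample. The submitters' processing notes name GRCh38.p13, and the aligner, quantifier and annotation are not given in the sources used here. The authors' estimated counts are not scaled, and the deposited FPKM and TPM values are scaled for length and depth. The shMSLN columns hold missing marks, and only the 16573 genes measured in every sample entered the fits.

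Rounded counts were fitted in R 4.3.3 by edgeR 4.0.16 (TMM, filterByExpr, glmQLFit, glmQLFTest, Benjamini-Hochberg over 14552 genes). Standard errors are the log2 fold change over the square root of F. CPM is TMM-scaled. Levels between genes were compared in TPM. For 3 samples against 3, an exact permutation test cannot go below p = 0.1, so none is given for single genes. The fit was tested on simulated data. Motifs and domains were searched as patterns of letters in Python 3.11.15, and positions are those of GENCODE release 29. Coding sequences were translated and the domains aligned with Biopython 1.88.

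The replicate numbers of the labels were checked for pairing. Over genes with a mean of at least 5 CPM, deviations from the group means correlated at 0.336, 0.107 and 0.140 between samples of the same number. shNC replicate 2 correlated more with shMSLN replicate 3 (0.161), so pairing was not clear. The main fit was unpaired, and all values given are from it unless an alternative is named. Pairing by number entered only as the replicate block among the alternatives.

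The members and lists were chosen with earlier results of these data known. Named genes are the members, MSLN, NRG3, NRG4, the ERBB receptors, ADAM10, RHBDF1, RHBDF2, at most 5 called genes with the smallest p in each list, and the 5 genes most like HBEGF and TGFA. KRT5, KRT6A, KRT17, KRT18, CDH1, LUM, COL1A2, COL3A1 and VWF are marker genes named after their values were seen. IAH1 and FBXO22 are named as overlapping genes. Alternatives were RLE and upper-quartile scaling, 2 other filters, DESeq2 1.42.0, limma-voom (limma 3.58.1), robust estimation, a replicate block, missing values as 0 and leaving out each sample.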

Additional observations from a re-analysis of the deposited data

How the results depend on the processing

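Over 15 alternative fits, HBEGF (log2 fold change -1.73 to -1.61), EREG (-0.46 to -0.36) and EGF (0.23 to 0.38) kept their direction and their call, with adjusted p-values of up to 4.63e-07, 0.00739 and 0.0391. NRG1 lost its call in 2 of 15, with DESeq2 (0.20, adjusted p = 0.0533) and without shMSLN replicate 2 (0.19, adjusted p = 0.0557), where 3 members were called, 1 of them higher. AREG was called in 0 of 15 (adjusted p = 0.0707 to 0.316). BTC changed sign with upper-quartile scaling (0.011), without shNC replicate 2 (0.010) and without shMSLN replicate 3 (0.032), with a range of -0.087 to 0.032 over the fits without 1 sample, always far from the threshold, and the cause was not tested. The replicate block called 5789 genes in place of 5032 and changed no member's call (HBEGF adjusted p = 1.58e-10, NRG1 adjusted p = 0.00925). Without single samples the genes called over the whole table numbered 3695 to 5399, and with DESeq2 3863.

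Shares of the ligand pool depend on how it is built. In scaled counts, not per length, TGFA made up 37.3% in shNC and 38.8% in shMSLN, HBEGF 13.7% and 4.75%, and NRG1 17.9% and 22.7%. With NRG3 and NRG4 added, these were 24.6% and 26.1%, 16.0% and 5.64%, and 11.7% and 14.6%. AREG, BTC, EPGN and NRG2 had the lowest counts of the group, and mRNA levels do not show release of ligand.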

Other observations

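Other substrates of ADAM17 were examined as a list of 23 genes, of which 19 were tested. In shMSLN cells 5 of these were called higher and 7 lower, where 16.6% and 18% of all tested genes were, and the median log2 fold change was -0.032. The list was chosen with earlier results of these data known, and its share was not tested. KIT, a receptor tyrosine kinase, rose from a mean of 29.3 to 69.1 CPM, a log2 fold change of 1.24 (adjusted p = 1.30e-08 from edgeR), and SDC1, the proteoglycan syndecan-1, from 136 to 173 CPM. CSF1, a macrophage growth factor, fell from 17.9 to 10.5 CPM, ICAM1, an adhesion molecule of leukocyte binding, from 19.7 to 12.2 CPM, and CD44, the hyaluronan receptor, from 1702 to 1381 CPM. The log2 fold changes of CSF1, ICAM1 and CD44 were -0.76, -0.69 and -0.30 (adjusted p = 6.91e-06, 4.46e-05 and 4.85e-06 from edgeR). TNF, IL1R2, VCAM1 and CX3CL1 did not pass the filter on low counts.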
